A study of Atriplex lentiformis with 9 samples.

Results

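Root expression was compared between 4 tall and 4 short plants of quailbush (Atriplex lentiformis), a salt-tolerant shrub that is grown on mine waste to hold it in place. Tall plants had a labelled height of 70 cm or more and short plants a height below 70 cm, so the groups were set by a label and not by any expression value. All plants grew for 11 weeks in mine tailings mixed with compost at 10% (TC10), 15% (TC15) or 20% (TC20). The tall group held TC15 plants 2 and 10 and TC20 plants 3 and 5. The short group held TC10 plants 2 and 4, TC15 plant 6 and TC20 plant 9. These were 8 of the 9 libraries of the series. The file titled TC10 plant 5 carried the column header of TC15 plant 6 and the same 4995 values, so it was left out and those values were counted once, as TC15 plant 6. The heights nearest the limit were 72 cm for TC15 plant 10 on the tall side and 62 cm for TC15 plant 6 on the short side.

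The growth of a plant in metal-rich substrate depends on a root that keeps taking up water and minerals while it holds back toxic ions. Roots do this partly with barriers: lignin forms the Casparian strip that seals the gaps between endodermal cells, and suberin, a waxy polyester, coats the walls of endodermis and outer cell layers. Jasmonate, salicylate and reactive oxygen drive defence programs that are known to trade off against growth, whereas gibberellin, brassinosteroid, auxin and the TOR kinase promote it. Entries carry UniProt names of Arabidopsis proteins, so each role given here is the role of the Arabidopsis namesake, and entries of 1 family may share reads.

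Height and compost were partly confounded. Both TC10 libraries were short, whereas TC15 and TC20 each gave 2 tall plants and 1 short plant. The part of a difference that belongs to 10% compost cannot be told apart from height over the 8 libraries, so values within TC15 and within TC20, and a fit with treatment as a covariate, stand beside the pooled values. That fit draws the difference from the TC15 and TC20 plants alone, with 1 short plant in each. The recovered reads per library were 3761983 to 4361964 in tall plants and 3030394 to 4752637 in short plants. The library of TC10 plant 2 had 9.38% of its signal in its top 20 entries, against 5.86% to 7.10% in the other libraries. The labels do not say whether plants shared a pot or tray, so p-values measure the spread between these plants only.

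Markers of root tissues were present in every library. All 14 xylem markers, all 8 phloem markers and all 7 endodermis markers were above 0 throughout. Of the root hair markers only COBL9 was at 0 in some libraries, and of the 4 green tissue markers only LHCA5 was. The summed green tissue markers were 262 to 416 normalised reads in tall plants and 255 to 356 in short plants. Summed xylem markers ran from 14561 to 36844 in tall plants and from 15020 to 41861 in short plants, and were highest in TC10 plant 2 and TC15 plant 2, 1 plant of each group. In these whole roots, fewer cells of a type and less RNA per cell cannot be told apart.

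Tall plants had somewhat more branches than short plants, but none of the plant measurements separated the groups beyond their spread. Height itself was 83.5 ± 8.58 cm in tall plants (SD, n = 4) and 56.8 ± 3.96 cm in short plants (SD, n = 5, TC10 plant 5 included, since its measurements are its own). It chose the groups and was not tested. Branch number was 25, 27, 24 and 26 in tall plants, against 25, 23, 24, 24 and 19 in short plants. The difference of 2.5 branches had an exact permutation p of 0.111 (two-sided, adjusted p = 0.476 over 6 measurements). The longest branch was 28.0 ± 9.20 cm in tall plants (SD, n = 4) and 17.6 ± 12.2 cm in short plants (SD, n = 5), with an exact permutation p of 0.222. Within TC15 it was longer by 13.5 cm in tall plants, whereas within TC20 the difference was -11.5 cm.

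Root metals overlapped between the groups. Zinc averaged 485 ± 399 µg/g in tall plants (SD, n = 4) and 584 ± 315 µg/g in short plants (SD, n = 5), with an exact permutation p of 0.667. Arsenic averaged 106 ± 78.9 µg/g in tall plants (SD, n = 4) and 196 ± 148 µg/g in short plants (SD, n = 5), with an exact permutation p of 0.317. Lead averaged 39.0 ± 23.1 µg/g in tall plants (SD, n = 4) and 84.2 ± 79.3 µg/g in short plants (SD, n = 5), with an exact permutation p of 0.286. The high arsenic and lead means of the short plants rest on TC10 plant 5, with 458 µg/g arsenic and 224 µg/g lead. Without that plant zinc was 18.2 µg/g higher in tall plants, and without the tall TC15 plant 10 the arsenic difference was -128 µg/g with an exact permutation p of 0.0357 before adjustment. Within treatments zinc was higher in tall plants, by 159 µg/g within TC15 and by 72 µg/g within TC20, while arsenic differed by 9 µg/g within TC15 and -22 µg/g within TC20, and lead by -4 µg/g within TC15 and 7 µg/g within TC20. The stress score of the labels, whose scale they do not explain, was 3.00 ± 0.816 in tall plants (SD, n = 4) and 2.40 ± 0.894 in short plants (SD, n = 5), with an exact permutation p of 0.492. With 4 plants against 5 the smallest p that the exact test can give is 0.0159.

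**Figure D1:**
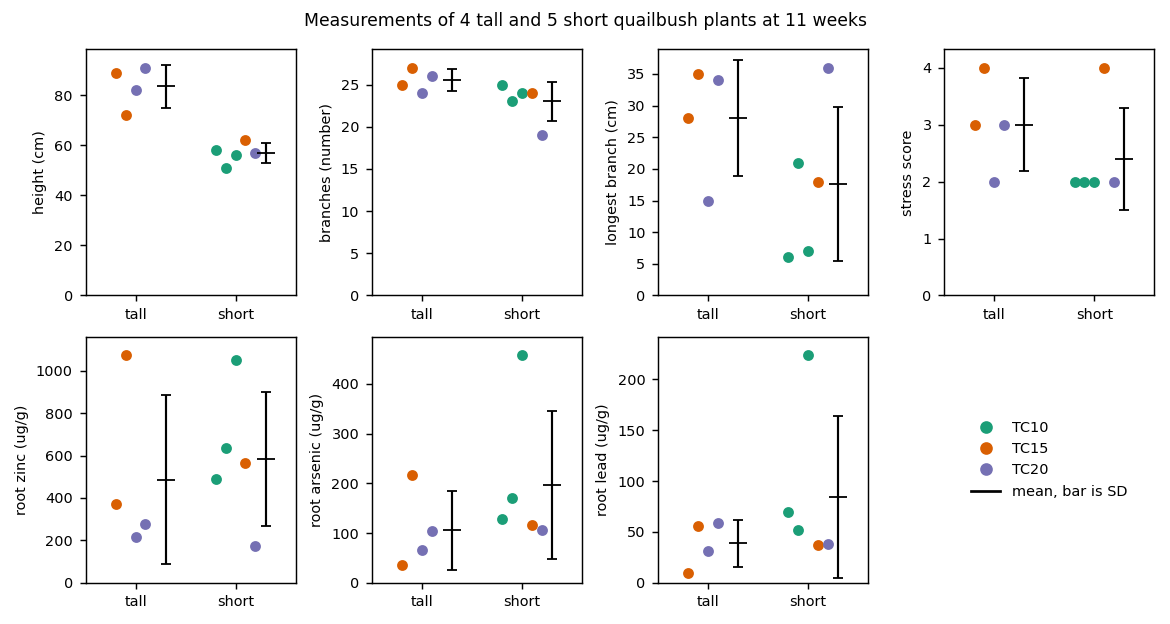
Each panel plots 1 measurement (vertical axis, with its unit) for the 4 tall plants on the left and the 5 short plants on the right, with points coloured by compost treatment and bars for the mean and SD. Height separates the groups by construction at 70 cm, whereas the other 6 measurements overlap.

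No entry passed the main test of tall against short roots. Limma on log2(value + 1), with Benjamini-Hochberg adjustment over 4801 tested entries, called 0 of them at an adjusted p under 0.05, and edgeR on the recovered reads called 0 as well. At an unadjusted p under 0.05, limma gave 311 entries (6.48%), of which 133 were higher in tall plants (2.77%) and 178 were lower (3.71%), and edgeR gave 351 (7.31%). Scaling to total reads turned that split: 59.6% of the unadjusted limma calls were then higher in tall plants, against 42.8% on the deposited scale, while the median difference of all entries moved to 0.07 from -0.01 on the log2 scale. DESeq2 called 16 of 4773 entries (0.335%), 6 higher (0.126%) and 10 lower (0.21%) in tall plants, and gave 453 (9.44%) at an unadjusted p under 0.05. On simulated data of 4801 entries, with 100 changed 2-fold and 100 changed 4-fold, DESeq2 gave 25 false calls against 8 for limma. Such data hold many true changes, so the 25 do not say how many of the 16 are false. With treatment as a covariate, limma again called 0 (393 at an unadjusted p under 0.05, 150 of them higher in tall plants, 3.12%, and 243 lower, 5.06%), edgeR called 0 (387, or 8.06%, at an unadjusted p under 0.05) and DESeq2 called 46 (0.958%, with 9.6% at an unadjusted p under 0.05), of which 6 were among the 16. These 6 were ATL74, U89A2, PFPB1, LHT1, IPT3 and CHI5. The groups did not overlap for 121 entries higher in tall plants (2.52%) and 85 lower (1.77%). In what follows, the values of the 4 tall plants come in the order TC15 plants 2 and 10, TC20 plants 3 and 5, those of the 4 short plants in the order TC10 plants 2 and 4, TC15 plant 6, TC20 plant 9, and all are normalised reads.

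The clearest entry that was higher in tall roots was ATL74, a RING-H2 protein of the ATL family of ubiquitin ligases, which mark proteins for breakdown. It had 218, 381, 304 and 316 in tall plants, against 84.8, 129, 152 and 91.2 in short plants. All 4 tall plants lay above all 4 short plants, and the ratio of the means was 2.66. The log2 difference was 1.42 ± 0.25 (SE), with a limma adjusted p of 0.699 and a DESeq2 adjusted p of 0.000884. DESeq2 called ATL74 in each of the 8 fits that left out 1 library, and the difference was 0.92 within TC15 and 1.75 within TC20.

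Other entries were higher in tall roots by smaller steps. FB84, an F-box protein of the kind that picks targets for ubiquitin ligases, had 602, 737, 695 and 717 in tall plants, against 425, 536, 489 and 471 in short plants. Its log2 difference was 0.52 ± 0.12 (SE), with a DESeq2 adjusted p of 0.0323. U89A2, a UDP-glycosyltransferase of the type that joins sugars to small molecules, had 1012, 1194, 979 and 1062 in tall plants, against 665, 811, 690 and 554 in short plants. The groups lay apart for both, and the ratio of the means was 1.43 for FB84 and 1.56 for U89A2. U89A2 had a DESeq2 adjusted p of 0.0302, and 0.0153 with treatment as a covariate. P4KG7, a phosphatidylinositol 4-kinase of the gamma class, had 11166, 12010, 11175 and 11922 in tall plants, against 8182, 7992, 8931 and 5484 in short plants. CDPKK, a calcium-dependent protein kinase that reads calcium signals, had 128, 102, 126 and 140 in tall plants, against 71.5, 92.5, 76.2 and 72.7 in short plants.

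The other leading entries on this side were of several kinds, among them an efflux carrier and a peptidase-like protein. DTX54, a MATE-type efflux carrier of the DETOXIFICATION family, had 256, 268, 275 and 383 in tall plants, against 93.4, 188, 154 and 66.2 in short plants, a log2 difference of 1.33 ± 0.33 (SE). SCP43, a serine carboxypeptidase-like protein, had 34.5, 38.8, 34.4 and 34.1 in tall plants, against 10.5, 22.2, 7.37 and 11.9 in short plants. The groups lay apart in both. The mean of SCP43 was 35.5 ± 2.24 in tall plants and 12.99 ± 6.40 in short plants (SD, n = 4 each). PUM3, a Pumilio RNA-binding protein that controls messenger stability, differed by 0.65, STIP1, a splicing-related protein, by 0.39, and CAF2P, a chloroplast intron splicing factor, by 0.46 on the log2 scale. GTE9, a bromodomain protein that reads acetylated histones, differed by 0.75, and U1135, whose role is left aside here, by 0.52. The limma adjusted p was 0.699 for every entry of this paragraph and the one before.

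The entries with the largest differences among those that did not overlap and were higher in tall roots included a kinase and a transcription factor. NEK7, a NIMA-related kinase, had 313, 145, 182 and 210 in tall plants, against 21.9, 132, 141 and 1.09 in short plants. Its log2 difference was 2.73 ± 1.22 (SE), but it was 0.59 within TC15 and 6.56 within TC20, so most of it came from the low value of TC20 plant 9 and of TC10 plant 2. WRK12, the namesake of WRKY12, a factor that restrains secondary wall thickening in Arabidopsis pith, had 646, 432, 369 and 449 in tall plants, against 256, 349, 244 and 126 in short plants. It differed by 1.01 ± 0.31 (SE), by 1.11 within TC15 and by 1.68 within TC20.

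The entry with the smallest limma p was lower in tall roots: PFPB1, the beta subunit of the pyrophosphate-dependent phosphofructokinase of sugar breakdown. It had 0 reads in all 4 tall plants, against 81.0, 17.3, 14.7 and 87.9 normalised reads in short plants, from 196 recovered reads. Against a floor of 3 reads over the tall group it was at least 72.4-fold lower in tall plants, and at least 54.3-fold lower without TC20 plant 9. Its limma adjusted p of 0.348 was the smallest of all entries, its DESeq2 adjusted p was 5.05e-06, and DESeq2 called it in each of the 8 fits that left out 1 library. The reads were few in every library, so 0 in a tall plant means not detected at this depth. PFPB1 met the filter through short plants alone, so its p-values and fold bounds describe an entry kept for its level there.

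An amino acid carrier and an enzyme of lignin synthesis also stood lower in tall roots. LHT1, the namesake of a high-affinity amino acid uptake carrier, had 52.2, 37.9, 57.7 and 63.8 in tall plants, against 190, 118, 95.8 and 239 in short plants. Every tall plant was below every short plant, with a log2 difference of -1.52 ± 0.32 (SE), a DESeq2 adjusted p of 0.0114 and, with treatment as a covariate, of 0.0200. LHTL8, a relative in the same carrier family that was picked after its values were seen, differed by -0.69 with an unadjusted limma p of 0.00633, and its groups overlapped. HST, the hydroxycinnamoyltransferase that routes phenolics into lignin, had 81.2, 90.0, 75.0 and 84.8 in tall plants, against 147, 190, 127 and 167 in short plants. The ratio of tall to short means was 0.525 and the DESeq2 adjusted p was 0.00710.

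Further entries of several kinds lay wholly below the short plants in tall roots. 14338, a 14-3-3 adaptor protein, had 254, 300, 269 and 280 in tall plants, against 416, 358, 398 and 438 in short plants, with a DESeq2 adjusted p of 0.0276. GLT2, a germin-like protein, had 10.3, 5.29, 9.12 and 4.37 in tall plants, against 69.6, 26.0, 19.7 and 38.0 in short plants, with a DESeq2 adjusted p of 0.0302. It met the filter only through short plants. CRR11, a cysteine-rich repeat secretory protein, differed by -0.61 on the log2 scale with a DESeq2 adjusted p of 0.0349. ASD2, an arabinofuranosidase that trims wall sugars, differed by -1.15, and GDL86, a GDSL-type esterase or lipase, by -1.02. VTI11, a SNARE of vesicle fusion with the vacuole, differed by -0.44. AB11G, an ABC transporter of subfamily G, had 2.80, 7.94, 10.1 and 14.9 in tall plants, against 83.8, 15.4, 16.0 and 39.1 in short plants, so the gap between the groups was narrow and TC10 plant 2 stood high. TA11B, a subunit of the general transcription factor TFIID, had 0, 0, 22.3 and 15.7 in tall plants, against 50.5, 27.0, 33.2 and 52.1 in short plants. Its near copy TAF11, picked after its values were seen, was 0.40 higher in tall plants with overlapping groups, and how reads were shared between the pair was not tested.

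**Figure D2:**
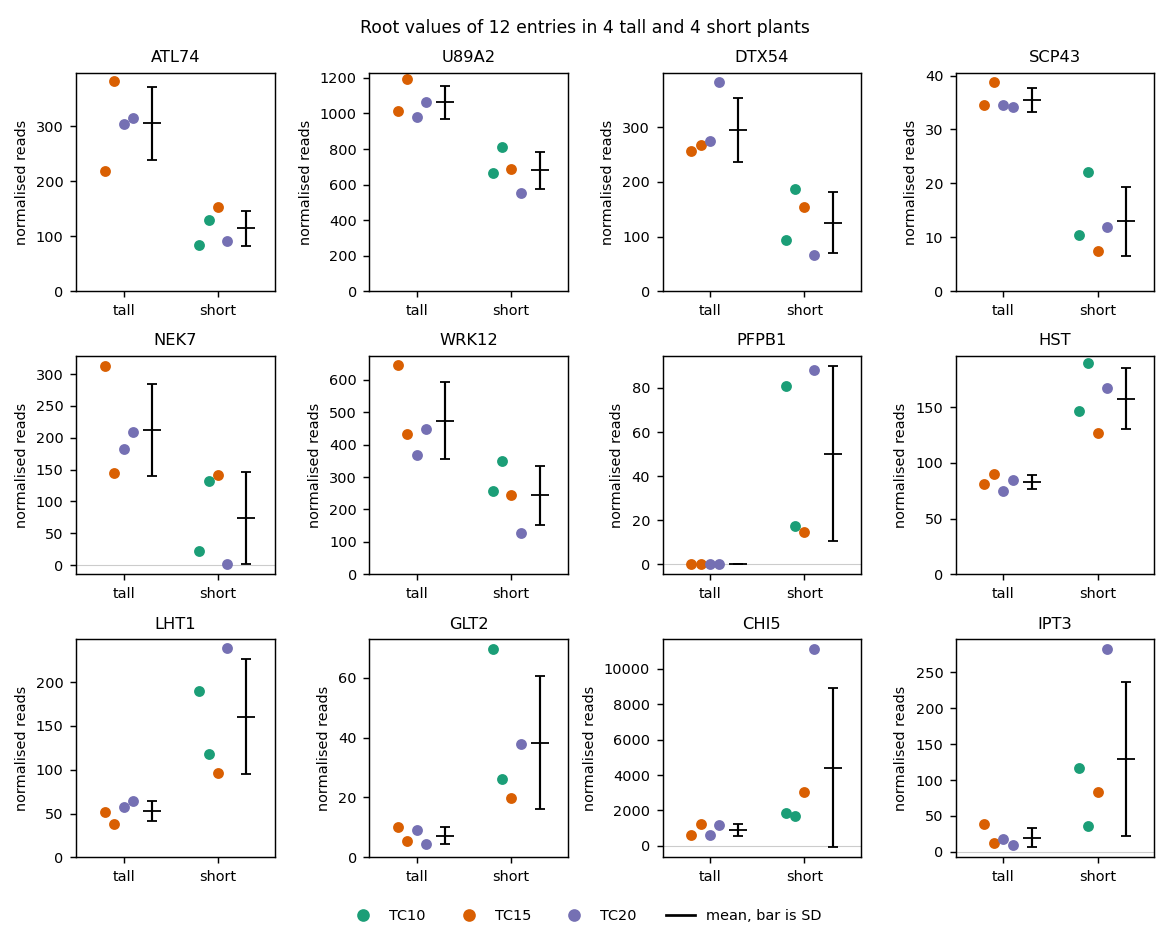
The 12 panels plot the normalised reads of 12 entries (vertical axis) in the 4 tall plants on the left and the 4 short plants on the right, with points marked by compost treatment and bars for the mean and SD. ATL74 and U89A2 lie higher in all 4 tall plants than in any short plant, whereas PFPB1, HST and LHT1 lie lower.

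Some of the DESeq2 calls rested on 1 or 2 plants. PAO1, a polyamine oxidase, had 173, 77.6, 94.2 and 91.8 in tall plants, against 2687, 141, 193 and 1451 in short plants, and was high in TC10 plant 2 and TC20 plant 9. CM2, a chorismate mutase at the entry to phenylalanine and tyrosine synthesis, had 65.3, 62.6, 104 and 69.9 in tall plants, against 568, 269, 77.4 and 368 in short plants, where TC15 plant 6 lay within the tall range. ACR5, a protein with amino acid binding ACT domains, had 75.6, 22.1, 0 and 35.8 in tall plants and 0 in all short plants, at least 42.1-fold higher in tall plants against a floor of 3 reads over the short group, or 24.3-fold without TC15 plant 2. FBX14, an F-box protein picked after its values were seen, had 0, 34.4, 27.4 and 60.3 in tall plants and 0 in all short plants, at least 38.5-fold higher by the same floor. One tall plant without reads overlapped the short plants for each of these 2 entries, and both met the filter through tall plants alone. PGP2, a phosphoglycolate phosphatase also picked after its values were seen, had 81.2, 3139, 3352 and 121 in tall plants, against 78.1, 97.3, 81.1 and 93.4 in short plants, so it was high in 2 tall plants and at the short level in the other 2. DESeq2 called each of these 5 entries in only 3 of the 8 fits that left out 1 library.

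IPT3 and CHI5 were called by DESeq2 both with and without treatment as a covariate. IPT3, an isopentenyltransferase that starts cytokinin synthesis in roots and is known to respond to nitrate, had 39.2, 12.4, 18.2 and 8.74 in tall plants, against 116, 35.6, 83.5 and 282 in short plants. Only TC15 plant 2 reached above the lowest short plant, the log2 difference was -2.50 ± 0.66 (SE), and the DESeq2 adjusted p was 0.0304 without and 0.0219 with the covariate. IPT7, a second such enzyme picked after its values were seen, differed by -1.20 with an unadjusted limma p of 0.0510. CHI5, a chitinase, an enzyme type that can cut fungal walls, had 632, 1247, 632 and 1170 in tall plants, against 1866, 1670, 3015 and 11095 in short plants. The groups did not overlap, TC20 plant 9 was by far the highest, and the log2 difference of -1.87 was -1.27 without that plant. The DESeq2 adjusted p of CHI5 was 0.0426 without and 0.000137 with the covariate.

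Tall and short plants could also be set side by side within TC15 and within TC20. For an entry whose groups do not overlap, the direction within TC15 and within TC20 is fixed by that choice and is no sign of stability. Each such value sets 2 tall plants against a single short plant. U1135 differed by 0.52 within TC15 and 0.56 within TC20, and GDL86 by -1.20 within TC15 and -0.88 within TC20. PAO1 differed by -0.73 within TC15 and -3.95 within TC20, and CM2 by -0.27 within TC15 and -2.09 within TC20. For both of these entries the difference was smaller within TC15, where TC15 plant 6 was the short plant.

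**Figure D3:**
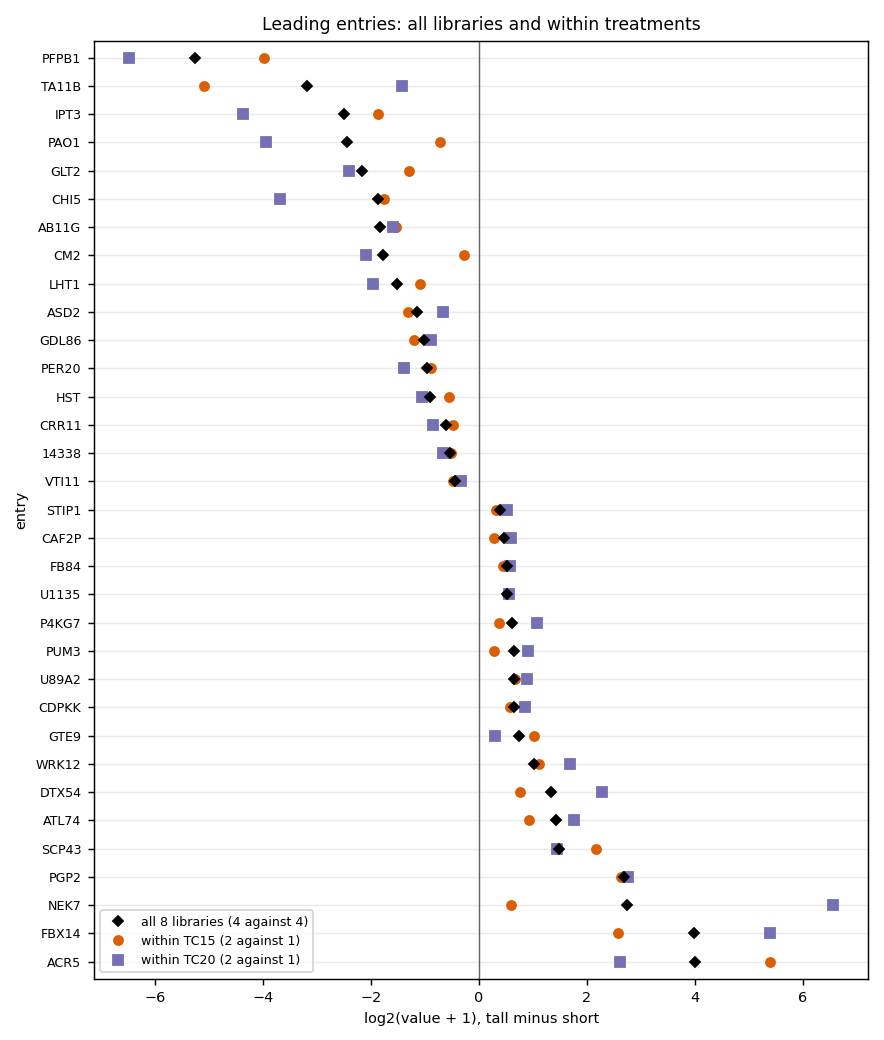
For 33 entries (rows), the horizontal axis gives the log2 difference, tall minus short, over all 8 libraries, within TC15 and within TC20, with 1 symbol for each. The side of 0 is fixed for entries chosen for groups that do not overlap, and the symbols of NEK7 lie farthest apart, at 0.59 within TC15 and 6.56 within TC20.

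Taken as a whole, the list of lignin, suberin and Casparian strip genes leaned low in tall roots. It had the lowest median of the lists with 10 or more tested members. Of its 50 tested members (66 matched by name), 37 were lower in tall plants (74.0%, against 52.1% of all entries), and the median log2 difference was -0.45, against -0.01 for all entries. Limma gave an unadjusted p under 0.05 for 11 of them on the lower side (22%, against 3.71% of all entries) and for 0 on the higher side. Among the 11, PER71 and LAC14 met the filter only through short plants. The groups did not overlap for 4 lower members and 1 higher member, against 1.77% and 2.52% of all entries. Casparian strip genes were not counted apart from the rest of the list. With treatment as a covariate, 38 were lower, the median was -0.43, and 12 had an unadjusted p under 0.05 on the lower side, against 5.06% of all entries. The summed level ran from 39957 to 44775 in tall plants and from 44550 to 60100 in short plants, touching where TC15 plant 2 met TC15 plant 6. Without TC15 plant 10 the count of 11 became 7. The plants that were lowest, TC15 plants 2 and 10 and TC20 plant 5, were all tall, but the median of the list in TC20 plant 3 was at the level of TC15 plant 6.

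Class III peroxidases, which join lignin units and stiffen walls, shared that lean. Of 21 tested, 18 were lower in tall plants on the deposited scale (85.7%, against 52.1% of all entries), 17 with TMM scaling and 16 with scaling to total reads. Within TC15 13 were lower and within TC20 16 were, each against 1 short plant. Over all libraries 5 had an unadjusted limma p under 0.05 on the lower side (23.8%, against 3.71% of all entries). PER20 had 31.7, 28.2, 30.4 and 36.7 in tall plants, against 59.1, 51.1, 56.5 and 89.0 in short plants, and PER11 had 345, 445, 682 and 604 in tall plants, against 785, 905, 763 and 935 in short plants. Neither overlapped between the groups, and the log2 differences were -0.96 ± 0.25 and -0.75 ± 0.21 (SE). PER57 differed by -1.27 and PER71 by -1.83 with overlapping groups. PER71 had 0, 3, 4 and 6 recovered reads in tall plants, against 16, 11, 14 and 4 in short plants. It met the filter only through short plants. PER55 differed by -0.86 over all libraries and by -1.12 within TC15, but by 0.28 within TC20. Laccases, the other oxidases of lignin, were split, with 3 of 6 lower. LAC14 was the one with an unadjusted limma p under 0.05, at 8.40, 4.41, 4.05 and 0 in tall plants, against 37.2, 15.4, 65.1 and 8.69 in short plants. It too met the filter only through short plants. CCR1, the cinnamoyl-CoA reductase that commits phenolics to lignin, was not lower: it averaged 12573 ± 1823 in tall plants and 9818 ± 1451 in short plants (SD, n = 4 each), with a log2 difference of 0.36.

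The suberin and cutin acyl enzymes stood lower as well, with 10 of 12 lower in tall plants under all 3 scalings (83.3%, against 52.1% of all entries on the deposited scale). Within TC15 9 were lower and within TC20 8 were, each against 1 short plant. KCS2, which lengthens the fatty acids of suberin, had 142, 329, 540 and 210 in tall plants, against 527, 821, 636 and 654 in short plants. C86B1, the cytochrome P450 that hydroxylates very long acyl chains, had 132, 250, 343 and 304 in tall plants, against 381, 489, 327 and 443 in short plants. In both, TC20 plant 3 was the single tall plant that reached into the short range, and it was also the tall plant with the highest value. GPAT4, an acyltransferase that builds cutin and suberin monomers onto glycerol, differed by -0.48, and FACR4, a reductase that makes suberin alcohols, by -0.99. The unadjusted limma p was 0.00845 for KCS2, 0.0341 for C86B1, 0.0277 for GPAT4 and 0.0467 for FACR4. These 4 made 33.3% of the 12, against 3.71% of all entries on the lower side. Of the 6 endodermis markers tested 5 were lower in tall plants (83.3%, against 52.1% of all entries, or 3 without TC20 plant 5), KCS2 among them. The median log2 difference of these markers was -0.17, or -0.30 with treatment as a covariate. Among them 1 had an unadjusted limma p under 0.05 on the lower side (16.7%, against 3.71% of all entries). Their summed level ran from 2348 to 4085 in tall plants and from 3386 to 3922 in short plants. The xylem markers went the other way: 8 of 14 were higher in tall plants, with a median log2 difference of 0.09, or 0.49 with treatment as a covariate. They were high in TC15 plant 2 and TC10 plant 2. The part of either marker list in these values was not tested.

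**Figure D4:**
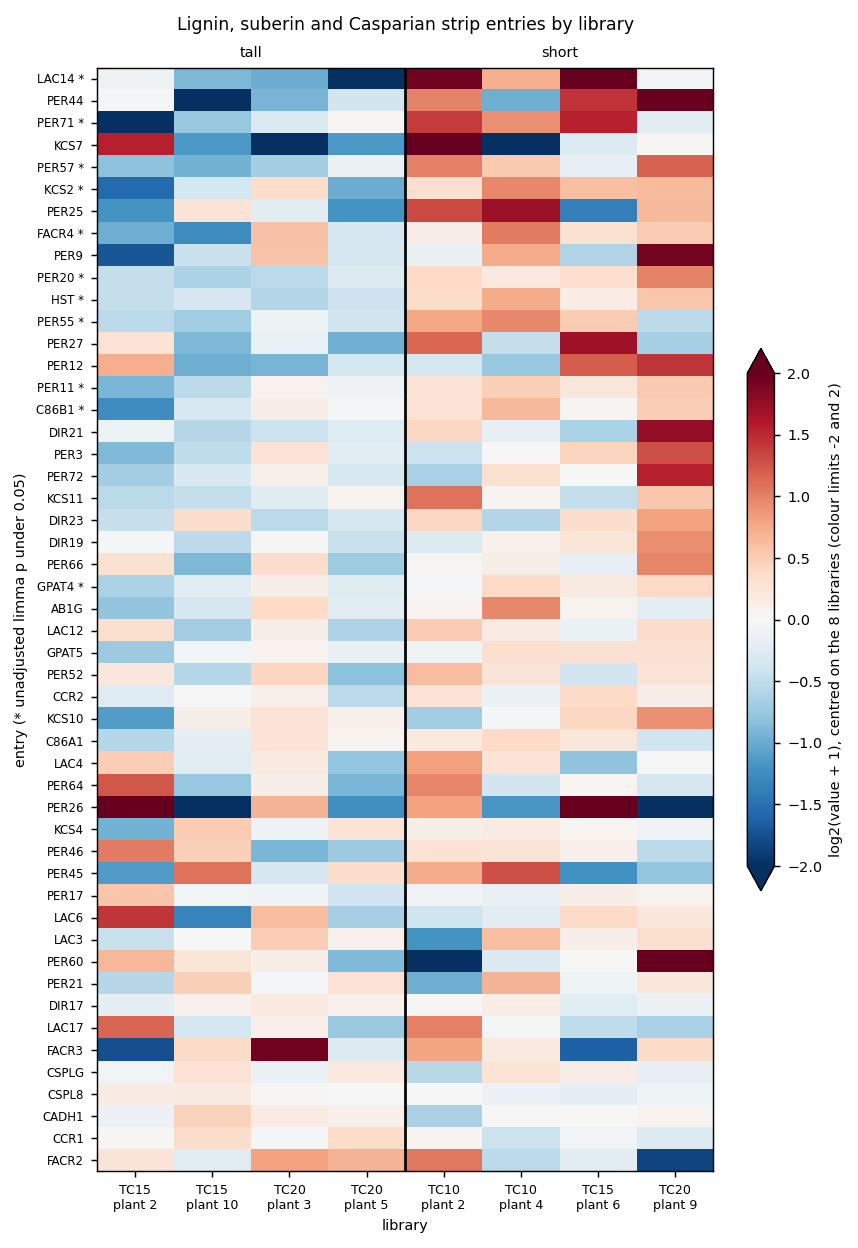
The map shows the 50 tested members of the lignin, suberin and Casparian strip list (rows) in the 8 libraries (columns, tall plants left of short plants), with colour for log2(value + 1) centred on the 8 libraries, limited to -2 and 2. The short plants have the higher medians, 0.09 to 0.29, and among the tall plants TC20 plant 3 has the highest, 0.09.

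Of 27 cell wall loosening genes 18 were lower in tall plants, with a median log2 difference of -0.22, which was -0.11 without TC20 plant 9 and -0.52 without TC10 plant 2, and most of the lean lay in 1 family. Of 17 XTH enzymes, which cut and rejoin xyloglucan chains in the wall, 14 were lower in tall plants (13 with scaling to total reads) and 4 had an unadjusted limma p under 0.05 (23.5%, against 3.71% of all entries on the lower side): XTH22, XTH24, XTH25 and XTH33. XTH25 had 290, 250, 474 and 497 in tall plants, against 1940, 712, 526 and 845 in short plants, without overlap. XTH23 had 11037, 8025, 14996 and 14384 in tall plants, against 58799, 16789, 12490 and 23078 in short plants. TC10 plant 2 was the highest plant in both by far, and within TC15 only 9 of the 17 were lower. Expansins, which loosen walls without cutting them, did not share the lean: 4 of 10 were lower over all libraries, but 10 of 10 with treatment as a covariate. The expansin-like EXLA2, picked after its values were seen, had 1607, 797, 1212 and 3052 in tall plants, against 8713, 2079, 1529 and 6455 in short plants.

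Defence genes were lower in tall roots more often than not. Of 55 tested, 39 were lower (70.9%, against 52.1% of all entries), and the median log2 difference was -0.27. An unadjusted limma p under 0.05 was found for 6 on the lower side (10.9%, against 3.71% of all entries) and 2 on the higher side (3.64%, against 2.77%). WRKY factors, which switch defence genes on and off, gave 17 of 20 lower on the deposited scale and 15 with scaling to total reads. WRK70, the namesake of a factor that promotes salicylate over jasmonate responses, had 907, 288, 268 and 72.6 in tall plants, against 1507, 421, 1965 and 1997 in short plants. The tall plant TC15 plant 2 lay above the short plant TC10 plant 4, and the log2 difference was -2.23 ± 0.76 (SE). WRK31, WRK48 and WRK50 differed by -0.58, -0.77 and -1.93. WRK40, a repressor of immune genes, had 4807, 1077, 1904 and 3642 in tall plants, against 15424, 2272, 2374 and 6580 in short plants, and its groups overlapped. The respiratory burst oxidases, which make superoxide at the cell surface, were split: RBOHH differed by -1.17 and RBOHE by 0.40.

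Jasmonate genes showed large differences that came from 2 short plants. Of the 6 tested, 5 were lower in tall plants with a median log2 difference of -1.72, but 0 had an unadjusted limma p under 0.05. TIF9, a JAZ repressor that jasmonate both removes and induces, had 59.7, 150, 67.9 and 235 in tall plants, against 519, 186, 129 and 2598 in short plants. TI10A, another JAZ repressor, had 120, 22.1, 48.6 and 42.8 in tall plants, against 919, 41.4, 70.0 and 572 in short plants. In both, TC10 plant 2 and TC20 plant 9 stood far above the rest, and TC10 plant 4 and TC15 plant 6 lay within the tall range. AOC4, an allene oxide cyclase of jasmonate synthesis picked after its values were seen, had 367, 391, 481 and 353 in tall plants, against 1204, 368, 516 and 6829 in short plants. The receptor COI1 differed little, with a log2 difference of 0.17. Without TC20 plant 9 the median of the list became -0.85, and the median was -0.16 within TC15 and -3.83 within TC20.

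Antioxidant enzymes leaned lower too, with 23 of 28 lower in tall plants (82.1%, against 52.1% of all entries) and a median log2 difference of -0.39. With treatment as a covariate 22 were lower (median -0.30). Within TC15 17 were lower (median -0.13) and within TC20 20 were (median -0.29), each against 1 short plant. TC10 plant 2 was the highest library for 10 of the 28 and TC20 plant 9 for 8. The centred log2 median of the list was -0.22 to -0.10 in tall plants and -0.08 to 0.26 in short plants, which did not overlap, whereas the summed level of 12855 to 17370 in tall plants and 15262 to 25031 in short plants did. DHAR2, which regenerates ascorbate, had 6999, 4311, 9369 and 6144 in tall plants, against 10062, 6847, 12790 and 14182 in short plants. GSTU9, a glutathione transferase, had 39.2, 85.6, 84.1 and 64.7 in tall plants, against 158, 142, 123 and 69.5 in short plants. Both overlapped between the groups, as did GPX3, a glutathione peroxidase, with a difference of -0.57. These 3 had an unadjusted limma p under 0.05 on the lower side (10.7%, against 3.71% of all entries). GSTT3, another glutathione transferase, was the one on the higher side, with a difference of 0.37.

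Growth hormones gave few entries that stood out. Of 7 gibberellin genes 6 were higher in tall plants, with a median log2 difference of 0.06, against 4 of 7 with treatment as a covariate. KAO2, an oxidase on the way to active gibberellin, had 141, 133, 143 and 86.6 in tall plants, against 70.5, 105, 98.3 and 69.5 in short plants, with a log2 difference of 0.54 and an unadjusted limma p of 0.0512. Of 13 brassinosteroid genes 9 were higher in tall plants (69.2%, against 47.9% of all entries), yet the 2 with an unadjusted limma p under 0.05 were lower (15.4%, against 3.71% of all entries): SERK1 differed by -0.64 and BAK1, the shared co-receptor of brassinosteroid and immune receptors, by -0.64. BAK1 had 3508, 4669, 4286 and 4373 in tall plants, against 9327, 5828, 4346 and 7609 in short plants. Among 29 auxin genes, ARFF, an auxin response factor, differed by 0.30 without overlap, and GH33, an enzyme that joins auxin to amino acids, by -2.05 at low counts. GH33 met the filter only through short plants. Among 20 cytokinin genes 13 were lower, IPT3 among them, whereas the receptor AHK2 had 1173, 1719, 1513 and 1930 in tall plants, against 880, 1430, 1250 and 802 in short plants. Among 27 ethylene genes 17 were lower (13 with scaling to total reads), and ERF98 differed by -1.49 and the ethylene-forming oxidase ACCO5 by -1.65.

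Regulators of growth gave small differences. The TOR and SnRK1 energy signalling list, which holds the kinases that set growth by sugar and energy, had 8 of 10 members higher in tall plants with a median log2 difference of 0.05. Without TC20 plant 9 it had 5 of 10 lower and a median of -0.0063. KIN10, the SnRK1 kinase that saves energy, had 977, 1244, 1282 and 1284 in tall plants, against 936, 1084, 1012 and 1101 in short plants, and SNF4, a partner subunit, differed by 0.40 with overlapping groups. IDD15, a zinc finger factor of gravity responses, had 244, 200, 177 and 235 in tall plants, against 79.1, 166, 157 and 111 in short plants, without overlap. GRF3, a growth-regulating factor that promotes cell proliferation, had 19.6, 34.4, 18.2 and 46.3 in tall plants, against 3.81, 18.3, 7.37 and 13.03 in short plants, which just overlap. FERON, a receptor kinase that watches the wall during growth, had 2509, 2996, 3147 and 3345 in tall plants, against 5481, 4804, 2808 and 4117 in short plants, with a log2 difference of -0.49 over all libraries and of -0.03 within TC15.

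Cytosolic ribosomal proteins were highest in a single short plant. Of 32 tested, 31 were lower in tall plants (96.9%), but the median log2 difference was only -0.13 and 0 had an unadjusted limma p under 0.05. The summed level was 52516, 59468, 60853 and 61632 in tall plants, against 51298, 56874, 65597 and 89096 in short plants. TC20 plant 9 was the highest of all libraries for 28 of the 32, and the TC10 plants lay at or below the tall level. RL7A2, chosen by its mean value, had 4332, 3893, 5103 and 4658 in tall plants, against 3515, 4452, 5185 and 6918 in short plants. RL7A1, a close relative with which it may share reads, had 40.1, 56.5, 71.9 and 69.1 in tall plants, against 55.3, 103, 92.1 and 144 in short plants. Without TC20 plant 9, 14 of 32 were lower and the median was 0.02. With treatment as a covariate, which takes the TC10 plants out of the difference, the median was -0.44 and 16 had an unadjusted limma p under 0.05 on the lower side (50%, against 5.06% of all entries).

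Among the other genes of growth, the linker histone H11 had 5033, 6261, 4390 and 6312 in tall plants, against 3411, 4112, 4722 and 3117 in short plants. The histone variant H2AV3 had 1043, 960, 1115 and 1095 in tall plants, against 1296, 1188, 1236 and 1299 in short plants, a narrow gap with no overlap. Chaperones were mixed, with 25 of 39 lower over all libraries. Within TC15 9 were lower (median log2 difference 0.29) and within TC20 28 were (median -0.41), each against 1 short plant. Their summed level was highest in 2 short plants, TC10 plant 2 (58587) and TC20 plant 9 (50513), against 26875 to 36360 in the other libraries. DNJ11, a J-domain cochaperone of plastids, had 2383, 2357, 2390 and 2171 in tall plants, against 2299, 1674, 1437 and 1066 in short plants.

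Other lists of growth and transport lay near the background. Of 24 cell cycle and DNA replication genes 14 were lower in tall plants (median -0.08), of 28 cellulose and hemicellulose genes 14 were (median 0.00), and of 26 pectin genes 15 were (median -0.05). Of 19 abscisic acid genes 9 were lower (median 0.05), of 38 potassium and sodium transport genes 22 were (median -0.03), and of 11 aquaporins 7 were (median -0.06). The median of each of these 6 lists changed sign under another scaling or without 1 of the plants. None of the cell cycle, cellulose, abscisic acid and aquaporin genes had an unadjusted limma p under 0.05.

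Sugar and mineral supply gave scattered differences. Of 30 sucrose and hexose genes 20 were lower in tall plants, but with treatment as a covariate only 14 were. SUC3, a sucrose carrier of phloem and sink tissues, had 241, 211, 200 and 250 in tall plants, against 633, 291, 302 and 454 in short plants, and TPPG, which removes phosphate from the sugar signal trehalose 6-phosphate, had 7.46, 14.1, 14.2 and 10.5 in tall plants, against 24.8, 19.3, 28.3 and 29.3 in short plants. Neither overlapped, and the log2 differences were -0.83 ± 0.25 and -1.09 ± 0.36 (SE). HXK3, a hexokinase, differed by -0.45 and the hexose carrier STP7 by 0.39. NAC45, a factor that clears the nucleus from maturing sieve elements, had 22.4, 29.1, 30.4 and 12.2 in tall plants, against 51.5, 33.7, 38.1 and 57.5 in short plants, while the median of all 8 phloem markers differed by -0.03.

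Of 27 genes of nitrogen uptake and assimilation 15 were lower (13 with scaling to total reads, 11 without TC20 plant 9), and PTR28 and PTR39, carriers of the nitrate and peptide family, differed by -1.11 and -0.81. PTR39 had 88.6, 58.2, 87.1 and 85.7 in tall plants, against 116, 66.5, 216 and 219 in short plants. Among 20 phosphate genes, SPXM3, a membrane protein with the phosphate-sensing SPX domain, differed by 0.97, which rests on 6708 in TC20 plant 5 against 1883 to 2342 in the other tall plants and 928 to 1987 in short plants. UBC24, the namesake of PHO2 that limits phosphate loading, differed by 0.27. PPA27, a purple acid phosphatase, had 3028, 4204, 6682 and 6294 in tall plants, against 4483, 4047, 5526 and 30895 in short plants, where TC20 plant 9 stood alone. CNBLA, a calcium sensor of the CBL family that is known for salt tolerance, had 133, 169, 152 and 155 in tall plants, against 390, 182, 178 and 278 in short plants, without overlap.

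Metal transport was the list with the highest median in tall roots, though by a small margin. Of 37 tested, 22 were higher in tall plants (59.5%, against 47.9% of all entries), the median log2 difference was 0.12, and 0 had an unadjusted limma p under 0.05 in either direction. MTP1, a zinc carrier of the vacuole membrane, had 1487, 1339, 1184 and 1186 in tall plants, against 900, 1208, 1259 and 651 in short plants, with a difference of 0.41 ± 0.21 (SE). PCR2, a membrane protein of cadmium resistance and zinc export, had 23.3, 126, 74.0 and 305 in tall plants, against 761, 175, 87.2 and 736 in short plants. Its difference of -1.74 came from TC10 plant 2 and TC20 plant 9, as in the jasmonate genes, and the groups overlapped. The metallochaperone HIP26 had 8318, 9497, 5451 and 8369 in tall plants, against 8229, 7675, 6517 and 5196 in short plants.

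**Figure D5:**
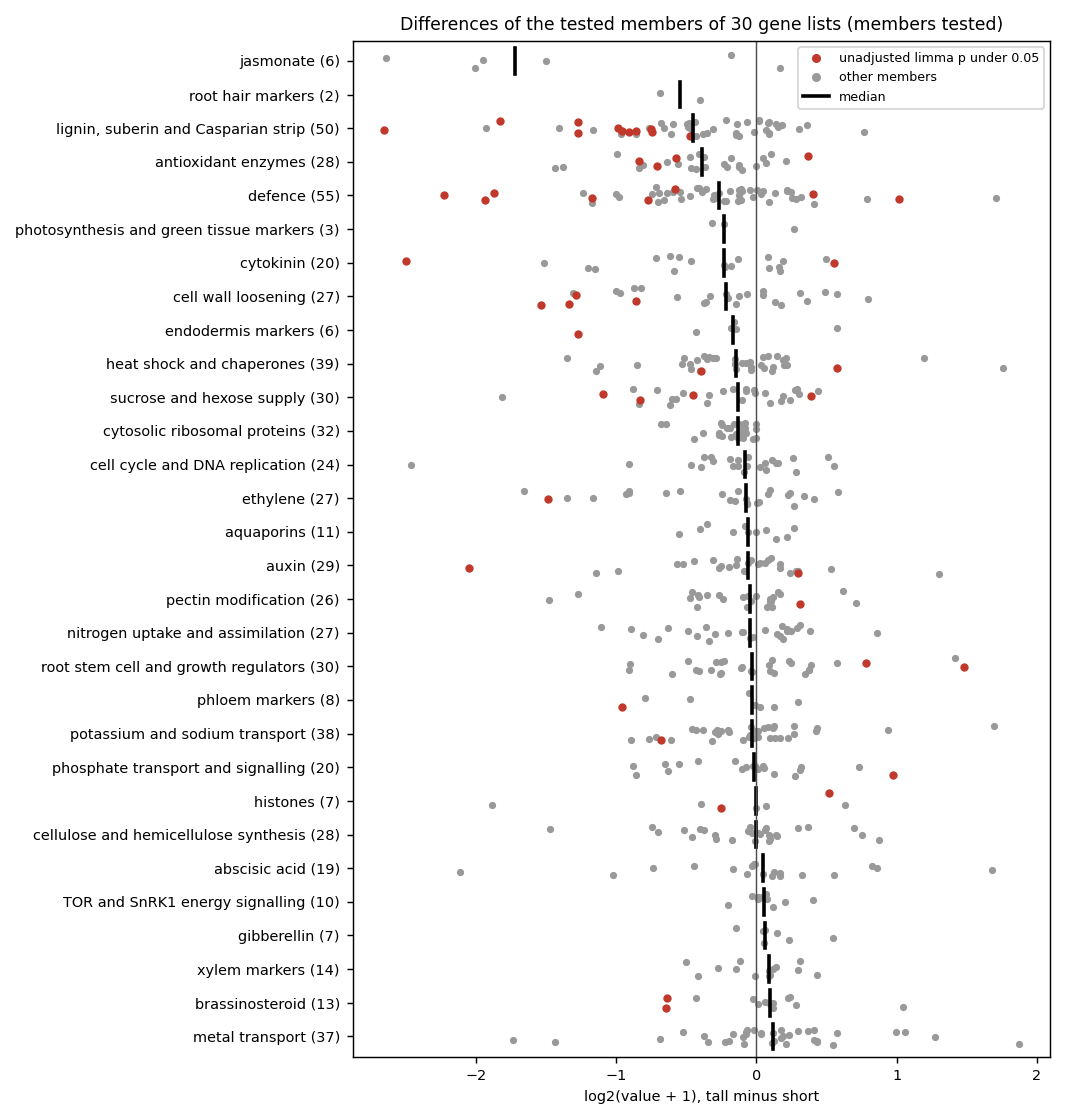
Each dot is the log2 difference, tall minus short (horizontal axis), of 1 tested member of 30 gene lists (rows, ordered by their median, members tested in brackets), red where the unadjusted limma p is under 0.05, and the bar marks the median. The red dots of the lignin, suberin and Casparian strip list all lie below 0, while the medians run from -1.72 for jasmonate to 0.12 for metal transport.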

How the data were processed

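Total RNA of whole roots was sequenced from stranded libraries, per the labels' protocols, and FastQC, Trim Galore, kallisto and DESeq2 are named in the submitters' processing notes. No label names the transcripts that reads were assigned to. The deposited signal column holds normalised reads per entry. Its steps gave whole reads for 100.0% of values (tolerance 0.001 read), with 1 read worth 0.874 to 1.23 units. An entry absent from a library's file was taken as 0. Of 5164 entries, 4801 reached 10 in 2 or more libraries and were tested. 363 were not tested.

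Groups were set by labelled height. Limma 3.58.1 (R 4.3.3, empirical Bayes trend, two-sided, Benjamini-Hochberg) was run on log2(value + 1), on which fold changes of low entries are understated. EdgeR 4.0.16 and DESeq2 1.42.0 were run on recovered reads. Plant measurements were tested with Python 3.11.15 and scipy 1.17.1. On simulated data of tall against short with 100 of 4801 entries changed per fold, limma recovered 37% of 2-fold and 77% of 4-fold changes. These rates hold for that simulated setting only.

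Named entries were the 12 with the smallest p in each direction and the 5 with the largest differences (no overlap, mean of 20 or more), the 10 leading DESeq2 calls, and up to 4 members of a list by mean or p. Others are marked as picked after values were seen, except list members with an unadjusted p under 0.05. Some named entries are not reported here. The groups and lists were chosen with earlier results of these data known. Lists were described by counts and medians, without a set test. Alternatives were other scalings, pseudocounts, filters, covariates, tests and left-out plants.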

Additional observations from a re-analysis of the deposited data

Results flagged for a closer look

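Several values lay apart from the other plants of their group. A gap test at the 95% level was applied to 218 groups of plants, and 20 had an extreme value. Chance gives about 1 in 20 for groups chosen without regard to their values. Many entries named here were chosen on these same values, so that rate need not hold for them. TC20 plant 9, a short plant, held 5 of them: AOC4 at 6829 normalised reads against 368 to 1204 in the other short plants, CHI5 at 11100 against 1670 to 3015, PPA27 at 30890 against 4047 to 5526, PTR28 at 3518 against 726 to 1037, and TIF9 at 2598 against 129 to 519. Among the other short plants, ERF98 was low in TC10 plant 4 at 10.6, WRK48 was high in TC10 plant 2 at 1323, and STP7 was high in TC15 plant 6 at 155.

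Among tall plants, TC20 plant 3 stood apart for ASD2 at 69.9, which was high, and for GTE9 at 216, which was low. TC20 plant 5 stood apart for DTX54 at 383 and SPXM3 at 6708, both high, and for DNJ11 at 2171, which was low. TC15 plant 2 was low for KIN10 at 977 and VTI11 at 640. TC15 plant 10 was low for PTR39 at 58.2 and high for SCP43 at 38.8.

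The stress score of TC15 plant 6 was 4, against 2 in all other short plants, so with these ties the gap is the whole range. TC10 plant 5 had 458 µg/g arsenic, against 107 to 171 in the other short plants, and 224 µg/g lead, against 37 to 70.

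The 3 entries given here differed in direction between compost levels. Every tall plant lay on 1 side of the short plant within TC15 and on the other side within TC20. They are not the only such entries. The chaperone HS901 had 2230 and 1997 recovered reads against 900 within TC15, but 2118 and 1887 against 7236 within TC20. The share of all entries that turn in this way was not counted. CM1, a chorismate mutase, had a log2 difference, tall minus short, of 0.16 within TC15 and -0.70 within TC20. PER55 had -1.12 within TC15 and 0.28 within TC20, and the JAZ repressor TIF5A had 0.68 within TC15 and -5.43 within TC20. Within TC15 TIF5A had only 8 and 3 recovered reads in tall plants, against 2 in TC15 plant 6. Its direction there thus rests on very few reads. The difference between compost levels was not tested, each rests on 1 short plant per level, and CM1, TIF5A and HS901 were picked after their values were seen.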

How the results depend on the processing

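No paired analysis was possible because plant numbers name different plants in each treatment. The 0 adjusted limma calls stayed 0 under every other limma and edgeR setting with all 8 libraries, and ran from 0 to 1 when a library was left out (1, FB92, without TC15 plant 6, by limma and edgeR). DESeq2 called 16, or 46 with treatment as a covariate, and 5 to 90 with a library left out (5 without TC10 plant 2 or TC20 plant 9, 31 without TC15 plant 2, 79 without TC10 plant 4, 90 without TC15 plant 6). The 311 unadjusted calls became 546 with the doubled file taken as TC10 and treatment as a covariate, 199 with stress as a covariate, and ran from 192 to 483 by limma with a library left out (206 without TC20 plant 9, 483 without TC15 plant 6). The 351 of edgeR ran from 208 to 508 (508 without TC15 plant 6) and the 453 of DESeq2 from 297 to 643 (511 without TC15 plant 2, 592 without TC10 plant 4, 643 without TC15 plant 6). The 11 lower barrier members became 7 with scaling to total reads and with stress as a covariate, and with a library left out ran from 7 (without TC15 plant 10) to 14 by limma, 9 to 13 by edgeR and 10 to 19 by DESeq2 (19 without TC20 plant 3). With the doubled file as TC10, GSTU9 was 0.0850, PER55 0.275, PER71 0.0723 and TAF11 -0.00811 on the log2 scale. WRK40 had a log2 slope of 0.0539 per 10 cm with treatment as a covariate. Without TC20 plant 9, PPA27 was 0.0503 by limma, 0.111 by edgeR and 0.106 by DESeq2, and RL7A2 was 0.0477, 0.0396 and 0.0343. Within treatments the stress difference was 0.0, zinc 115.5 µg/g and lead 1.5 µg/g. Zinc differed by 18.2 µg/g without TC10 plant 5, and arsenic by -128 µg/g without TC15 plant 10 (exact permutation p 0.0357). The causes of these shifts were not tested.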
